A study of Homo sapiens with 6 samples.

Results

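RNA-seq of mRNA from A549 cells, a human lung adenocarcinoma line, was read for 8 transcription factors of lung and endoderm development, chosen by gene symbol: NKX2-1, FOXA1, FOXA2, HNF4A, GATA6, CEBPA, SOX2 and ELF3. All 8 had a row among the 30493 genes of the count table, and 7 of the 8 had enough counts to be tested, the exception being NKX2-1. The 3 control libraries are labelled as carrying a control plasmid and the 3 knockdown libraries as STAU1 knockdown, in the same line, with no other treatment named. STAU1 encodes a double-stranded RNA-binding protein that acts in mRNA transport, translation and decay. Sample names begin with NC in controls and si in knockdown libraries, so whether both groups received the same kind of reagent is not clear from the labels, and a difference in reagent and the knockdown cannot be told apart. The labels do not name the reagent's sequence, a time after transfection or separate cultures, so p-values reflect only library-to-library spread, possibly technical.

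These factors bind DNA and set which epithelial genes a cell can use. FOXA1 and FOXA2 are forkhead pioneer factors that open chromatin in foregut endoderm, and GATA6, a zinc finger factor, acts beside them. NKX2-1 is the homeodomain factor that marks lung and thyroid and drives surfactant genes, while HNF4A, a nuclear receptor, drives liver and gut genes. CEBPA is a basic leucine zipper factor of differentiating alveolar, liver and fat cells, SOX2 an HMG-box factor of proximal airway and stem cells, and ELF3 an ETS factor of simple epithelia. In lung adenocarcinoma, loss of NKX2-1 is known to go with HNF4A and gastric or liver genes.

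With STAU1 depleted, HNF4A rose 1.57-fold, SOX2 1.86-fold, FOXA1 1.19-fold and ELF3 1.12-fold, and CEBPA fell 1.34-fold. FOXA2 and GATA6 were not called. Of the 7 tested factors 5 were called (71.4%), 4 higher and 1 lower, in a comparison in which 44.2% of all 17089 tested genes were called (22.2% higher and 22% lower). Genes were called at an adjusted p under 0.05 by edgeR (quasi-likelihood test, p-values adjusted by Benjamini and Hochberg's method over all tested genes). Calls were split evenly with TMM scaling (50.3% higher), but 69.5% were higher with total-count scaling and 77.3% on the log2(FPKM + 1) scale. The 7 factors had a median log2 fold change (knockdown minus control) of 0.16, beside -0.0004 over all tested genes, and the groups did not overlap for 6 of the 7 (5 higher, 1 lower), beside 51.4% of tested genes (25.8% with knockdown above and 25.5% with control above). With 7 genes and so high a background, these counts say nothing particular about the set, and the results below are those of single factors.

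The labels and libraries were checked first. STAU1 had 3738, 3810 and 3730 counts in the controls and 501, 500 and 528 in the knockdown libraries. Libraries held 30354219 to 35431441 counts, of which mitochondrial genes took 17.3 to 17.9% in controls and 15.8 to 16.1% in knockdown libraries. The epithelial genes KRT8 and KRT18 were abundant, at 4371 and 4128 CPM in controls. CPM, a read count scaled to library size, was computed with TMM factors, which adjust for composition. All 6 epithelial markers were expressed, with a summed level of 8762 to 8772 CPM in controls and 6539 to 6747 in knockdown libraries, where KRT8, KRT18 and CLDN4 fell and CDH1 and EPCAM rose. Markers of other cell types were read as well. Airway markers summed to 240.3 to 251.6 CPM in controls and 277.1 to 305.7 in knockdown libraries (2 of 5 tested markers higher). Most of it was MUC5B, itself abundant at 217.5 CPM in controls. KRT5 was at 0 in controls and SCGB3A1 at 0 in knockdown libraries. Both were near the limit of detection, with 1 and 6 counts over all libraries, so these zeros show no difference. Blood and immune markers summed to 13.9 to 15.3 and 17.2 to 19.7 CPM (1 of 3 tested higher, CD14, which made up most of the sum). Of these markers PTPRC, CD3E and MS4A1 had no row in the count table. Stromal markers summed to 11.5 to 12.3 and 23.7 to 24.9 CPM (3 of 5 higher, 0 lower). Among them CLDN5 had no row, and VWF had 8 counts over all 6 libraries. Over all tested genes 22.2% were called higher and 22% lower, so these marker counts are a description only. The part of these shifts in the results below was not tested. In bulk RNA, fewer cells of a kind and less RNA per cell cannot be told apart.

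The 8 transcripts spanned a wide range of levels. Per length, on the authors' FPKM scale (fragments per kilobase of gene, scaled to depth), ELF3 was highest in controls at 37.3 ± 0.327 FPKM (SD, n = 3) and stood above 97.5% of the genes with an FPKM value. FOXA2 followed at 10.04 ± 0.237 FPKM. CEBPA at 6.68 ± 0.304 and FOXA1 at 6.58 ± 0.197 FPKM came next and lay within each other's spread. HNF4A stood at 2.63 ± 0.1 FPKM, GATA6 at 0.983 ± 0.155 and SOX2 at 0.863 ± 0.150, the latter pair within their spread, and NKX2-1 was last at 0.0600 ± 0.0100 FPKM. In knockdown libraries FOXA1 (8.42 ± 0.275 FPKM) lay above CEBPA (5.38 ± 0.413), and SOX2 (1.73 ± 0.191) above GATA6 (1.17 ± 0.0404). The FPKM of HNF4A implies a gene length of 14110 bases, 1.93 times its merged exon length in GENCODE 29, beside 1.14 to 1.31 times for the other 7 factors. Scaled by GENCODE 29 lengths, HNF4A had 5.25 ± 0.186 CPM per kilobase in controls and kept its place behind FOXA1 (8.93 ± 0.274) and CEBPA (8.08 ± 0.330).

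**Figure D1:**
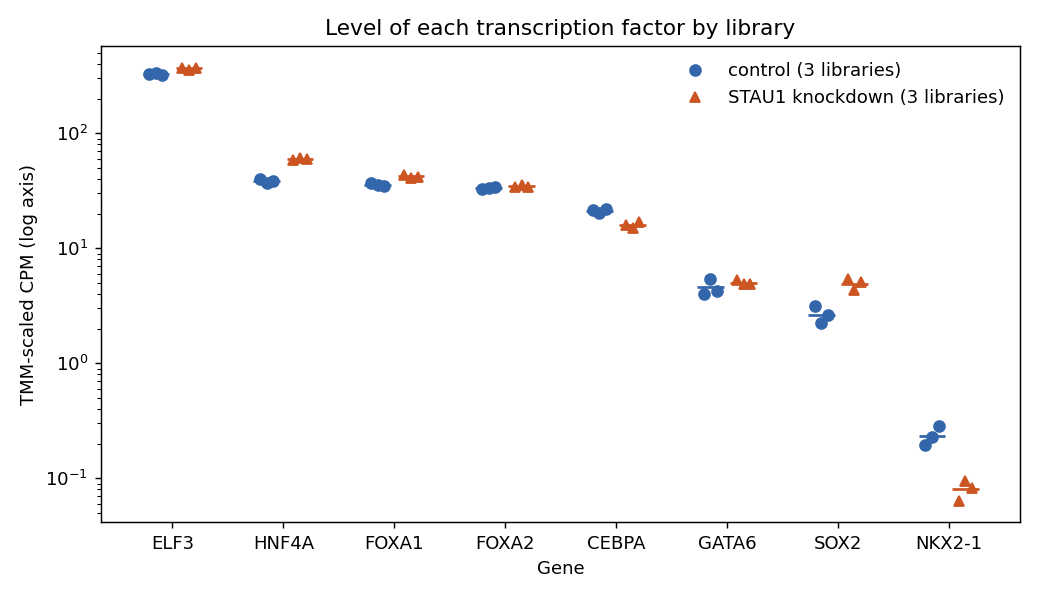
TMM-scaled CPM (log axis) of the 8 transcription factors in each of 3 control libraries (circles) and 3 STAU1 knockdown libraries (triangles), with bars at the group means. HNF4A, SOX2, FOXA1 and ELF3 lie higher in every knockdown library, CEBPA and NKX2-1 lower, and GATA6 overlaps.

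HNF4A (ENSG00000101076.18, chromosome 20, 44355700 to 44434596, plus strand, GRCh38 coordinates of GENCODE 29) was the called factor with the smallest adjusted p. Its controls held 1235, 1135 and 1219 counts and its knockdown libraries 1843, 1962 and 2170. On the TMM scale this was 39.8, 37.1 and 38.3 CPM against 58.9, 61.5 and 60.05 CPM. Every knockdown library lay well above every control, and the gap was far wider than the spread within a group. The log2 fold change was 0.65 (SE 0.04, edgeR adjusted p = 3.4e-19), and 3.91% of tested genes had one as high or higher. The gene is known to start from a pair of promoters, an upstream one (P2) used in pancreas and gut and a downstream one (P1) used in liver, and the counts do not separate their transcripts.

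The RefSeq windows for both starts (GRCh38.p14, 250 bases before to 50 after each start) are shown because the rise of HNF4A cannot be assigned to either. They lie 45540 bases apart. Capitals mark matches to 4 short patterns, each searched on both strands with N as any base. The HNF4 pattern was CAAAGNNCA. For forkhead factors such as FOXA1 the letters were TGTTTNC. Those for the zinc finger factors of the GATA6 family were AGATAA. The pattern for C/EBP factors was TTGCNNAA. The upstream window, chr20:44355449-44355748 on the plus strand, holds 1 GATA match, 26 bases before the start. The downstream window, chr20:44400989-44401288 on the plus strand, holds none of the 4 and so has no capitals.
HNF4A upstream: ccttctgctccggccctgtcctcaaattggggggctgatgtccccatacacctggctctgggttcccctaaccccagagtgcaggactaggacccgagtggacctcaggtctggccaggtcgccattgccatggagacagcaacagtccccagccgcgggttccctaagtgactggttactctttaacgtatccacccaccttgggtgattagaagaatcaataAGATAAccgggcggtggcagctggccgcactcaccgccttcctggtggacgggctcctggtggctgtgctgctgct
HNF4A downstream: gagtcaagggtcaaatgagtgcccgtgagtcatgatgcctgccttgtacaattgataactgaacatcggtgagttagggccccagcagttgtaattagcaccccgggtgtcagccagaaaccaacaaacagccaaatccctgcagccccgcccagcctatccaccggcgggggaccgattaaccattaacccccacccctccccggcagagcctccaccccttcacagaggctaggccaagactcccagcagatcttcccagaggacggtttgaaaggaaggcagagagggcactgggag

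Across 35116 RefSeq windows of this length, 5.28% hold the HNF4 pattern, 18% the forkhead, 10.3% the GATA and 10.5% the C/EBP pattern. Of the 8 factors 7 had a window in the table, 9 windows in all. Of these 7 genes, NKX2-1 and FOXA1 a forkhead match, NKX2-1 and HNF4A a GATA match, and the other 4 genes no match. No 2 matches overlapped in the windows printed here, and a match is a run of letters, not a bound site.

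HNF4A was set beside its close relatives and partners. HNF4G, the gut paralog, rose from 101, 89 and 94 counts to 127, 174 and 154 (log2 fold change 0.59, SE 0.13, edgeR adjusted p = 1.8e-04). The ratio of HNF4A to HNF4G counts within a library was 12.6 ± 0.381 in controls and 13.3 ± 1.76 in knockdown libraries (SD, n = 3), and these overlapped. The within-library ratio of HNF4A to FOXA2, which no scaling can change, was 1.22, 1.1 and 1.13 in controls and 1.72, 1.74 and 1.75 in knockdown libraries. An exact two-sided permutation test of that ratio gave p = 0.1, the smallest that 3 against 3 allows.

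FOXA1 (ENSG00000129514.8, chromosome 14, 37589984 to 37596059, minus strand) went from 1140, 1081 and 1102 counts to 1369, 1305 and 1512. That was 36.7, 35.3 and 34.6 CPM against 43.8, 40.9 and 41.8 CPM, with no overlap. The log2 fold change was 0.25 (SE 0.04, edgeR adjusted p = 3.4e-06). FOXA2 (ENSG00000125798.15, chromosome 20, 22581005 to 22585455, minus strand) had 32.6, 33.8 and 34.0 CPM in controls and 34.4, 35.3 and 34.2 in knockdown libraries. The lowest knockdown library lay just above the highest control, and the log2 fold change of 0.05 (SE 0.04) was not called (edgeR adjusted p = 0.381). FOXA2 was called with total-count scaling and on both FPKM scales, which shift most genes upward. The ratio of FOXA1 to FOXA2 counts within a library was 1.13, 1.05 and 1.02 in controls and 1.27, 1.16 and 1.22 in knockdown libraries, again with the smallest possible p of 0.1 in the exact permutation test. FOXA3, the third member of the family, had 0.10 (SE 0.09) and was not called.

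SOX2 (ENSG00000181449.4, chromosome 3, 181711924 to 181714436, plus strand, a gene of 1 exon that lies inside the noncoding SOX2-OT) had the largest fold change of the 7 tested factors from a low level. Controls held 97, 68 and 83 counts and knockdown libraries 168, 138 and 184. In CPM these were 3.13, 2.22 and 2.61 against 5.37, 4.32 and 5.09. The groups did not overlap, and the log2 fold change was 0.89 (SE 0.13, edgeR adjusted p = 2.3e-07). Only 1.6% of tested genes had a log2 fold change as high or higher. SOX2-OT itself had 3 counts in all controls and 8 in all knockdown libraries. SOX21, another SOX factor of airway epithelium, rose by 0.82 on the log2 scale (SE 0.18, 45, 56 and 40 counts to 80, 90 and 95).

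GATA6 (ENSG00000141448.11, chromosome 18, 22169443 to 22202528, plus strand) had 125, 166 and 135 counts in controls and 166, 157 and 176 in knockdown libraries. Control replicate 2 reached the knockdown range, so the groups overlapped. The log2 fold change of 0.14 (SE 0.12) was not called (edgeR adjusted p = 0.35), and its error is too wide to show that the level was unchanged. GATA4, another GATA factor of endoderm, had a log2 fold change of -0.29 (SE 0.14), not called. Without knockdown replicate 3 GATA4 was called lower (-0.42, edgeR adjusted p = 0.024). GATA5 had -0.22 (SE 0.36), not called. The within-library ratio of SOX2 to GATA6 counts went from 0.600 ± 0.184 to 0.979 ± 0.0881 (SD, n = 3), with no overlap.

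ELF3 (ENSG00000163435.16, chromosome 1, 202007945 to 202017188, plus strand) was the most abundant of the 8 and the most precisely measured. It had 10216, 10188 and 10316 counts in controls and 11655, 11439 and 13481 in knockdown libraries. At 329.3, 332.9 and 323.9 CPM against 372.7, 358.3 and 373.1 CPM the groups did not overlap. The log2 fold change was 0.16 (SE 0.02, edgeR adjusted p = 2.0e-08). EHF, its nearest epithelial ETS relative, rose by 0.27 (SE 0.03, 61.4 ± 0.886 to 73.9 ± 1.305 CPM, SD, n = 3). The ratio of ELF3 to EHF counts was 5.32, 5.37 and 5.36 in controls and 4.96, 4.93 and 5.05 in knockdown libraries, lower in all 3, with the smallest possible exact permutation p of 0.1. ELF1, a broadly expressed ETS factor, rose by 0.16 (SE 0.05).

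CEBPA (ENSG00000245848.3, chromosome 19, 33299934 to 33302564, minus strand) was the tested factor that fell. Controls held 665, 622 and 702 counts and knockdown libraries 500, 475 and 606. On the TMM scale these were 21.4, 20.3 and 22.04 CPM against 15.99, 14.9 and 16.8 CPM, and every knockdown library lay below every control. The log2 fold change was -0.42 (SE 0.06, edgeR adjusted p = 5.7e-08), and 7.36% of tested genes had one as low or lower. The RefSeq window at its start, chr19:33302485-33302784 on the minus strand (GRCh38.p14), is shown because CEBPA went against the other called factors. It is 80.7% G or C, beside a median of 58.7% over all windows, and holds none of the 4 patterns, so it has no capitals.
CEBPA: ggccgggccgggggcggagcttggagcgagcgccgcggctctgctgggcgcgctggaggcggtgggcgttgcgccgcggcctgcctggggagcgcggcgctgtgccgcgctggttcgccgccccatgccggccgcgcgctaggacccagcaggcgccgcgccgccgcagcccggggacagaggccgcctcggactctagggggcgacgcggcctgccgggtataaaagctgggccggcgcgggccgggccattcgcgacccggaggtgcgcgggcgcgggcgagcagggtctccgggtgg

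The other C/EBP genes did not follow CEBPA. CEBPD, an acute-phase factor, went from 27.01, 25.7 and 25.3 CPM to 43.3, 44.3 and 47.6 CPM (log2 fold change 0.79, SE 0.05, edgeR adjusted p = 8.1e-20). CEBPB, linked to stress and inflammation, went from 108.2 ± 2.36 to 114.5 ± 3.11 CPM (SD, n = 3, 0.08, SE 0.03), which was not called by DESeq2 (adjusted p = 0.0563) or without control replicate 3, knockdown replicate 1 or knockdown replicate 3 (edgeR adjusted p = 0.0939, 0.0757 and 0.0597). CEBPG had -0.02 (SE 0.03), not called. Counts of CEBPD per count of CEBPA were higher in every knockdown library, going from 1.26, 1.27 and 1.15 in controls to 2.71, 2.97 and 2.84 in knockdown libraries. Those of CEBPB per CEBPA went from 5.09 ± 0.276 to 7.22 ± 0.285 (SD, n = 3). Both ratios had the smallest possible exact permutation p of 0.1.

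**Figure D2:**
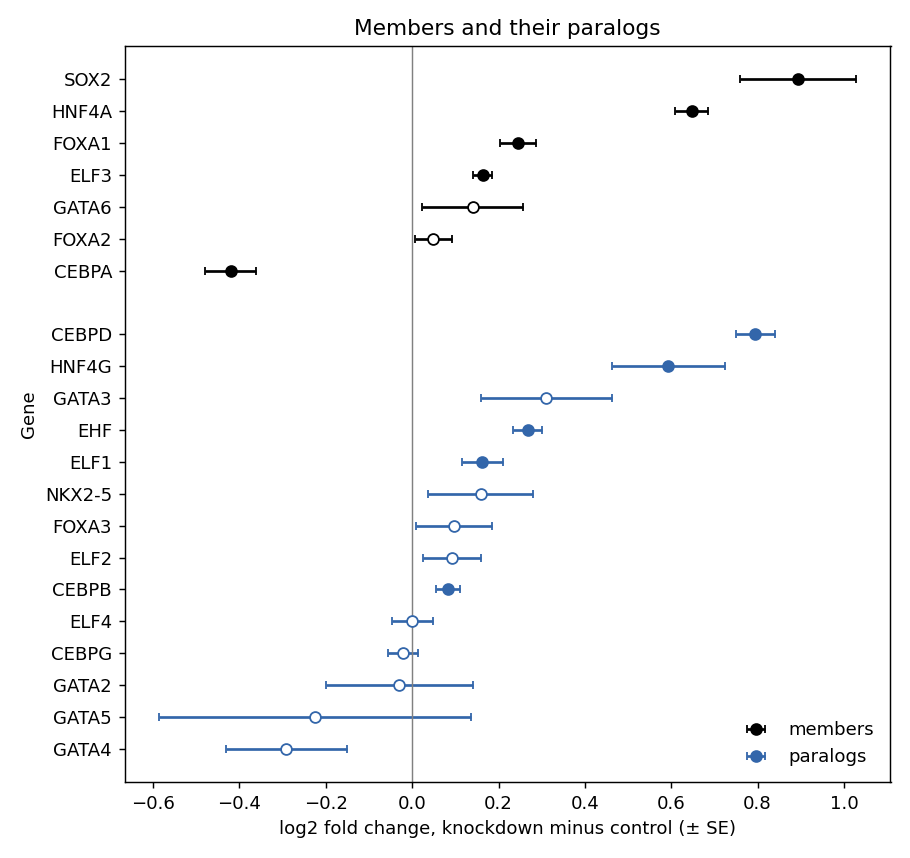
Log2 fold change (knockdown minus control, bars are SE) of the 7 tested factors (black) and 14 tested paralogs (blue), with filled points at an adjusted p under 0.05. Called paralogs lie to the right of 0, with CEBPD at 0.79 the farthest, while CEBPA lies at -0.42.

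Of 21 paralogs of the 8 factors, 14 were tested, 5 were higher (CEBPD, EHF, HNF4G, ELF1 and CEBPB), 0 lower and 9 not called (median log2 fold change 0.10). The share called was 35.7%, all of it higher, where 44.2% of all tested genes were called and 22.2% were higher, and no result about the paralogs as a group is read from it.

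NKX2-1 (ENSG00000136352.19, chromosome 14, 36516392 to 36521149, minus strand) was close to the limit of detection. It had 6, 7 and 9 counts in controls and 2, 3 and 3 in knockdown libraries, or 22 against 8 over the groups. All 3 knockdown libraries lay below all 3 controls. The ratio of control to knockdown level was 2.92, with a 95% exact binomial interval of 1.25 to 7.59 that covers counting error only. An exact two-sided permutation test gave p = 0.1, the smallest possible, and edgeR without the filter on low counts gave a log2 fold change of -1.50 (SE 0.65, adjusted p = 0.0799). Alveolar type II markers, among them surfactant genes that NKX2-1 is known to drive, were mixed. Of 8 such markers, SFTPA1, SFTPA2, SFTPB and SLC34A2 were called lower, NAPSA and SFTPD were not called, and SFTPC and LAMP3 were not tested. Since 22% of all tested genes were called lower, and the 4 called markers reached the minimum of 10 counts in controls alone and so had to differ, their number is a description only.

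Their summed level was 18.9 to 20.6 CPM in controls and 4.15 to 4.51 CPM in knockdown libraries. SFTPA1 went from 162, 141 and 212 counts to 0 in all 3 knockdown libraries, where 0 counts allow up to 0.083 to 0.0959 CPM (3 counts per library). SFTPA2, a near-identical neighbour that may share its reads, had 216, 215 and 190 counts and then 0, 1 and 1, and SFTPB was also at 0 in each knockdown library. By contrast NAPSA, an aspartic protease gene and an NKX2-1 target, had 47, 59 and 67 counts in controls and 60, 57 and 66 in knockdown libraries, and SFTPD had 58, 72 and 56 and then 70, 73 and 79. SFTPC had 14 counts in all controls and 15 in all knockdown libraries, and LAMP3 28 and 10. The part of any other cells or of RNA from another source in the NKX2-1 counts was not tested.

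**Figure D3:**
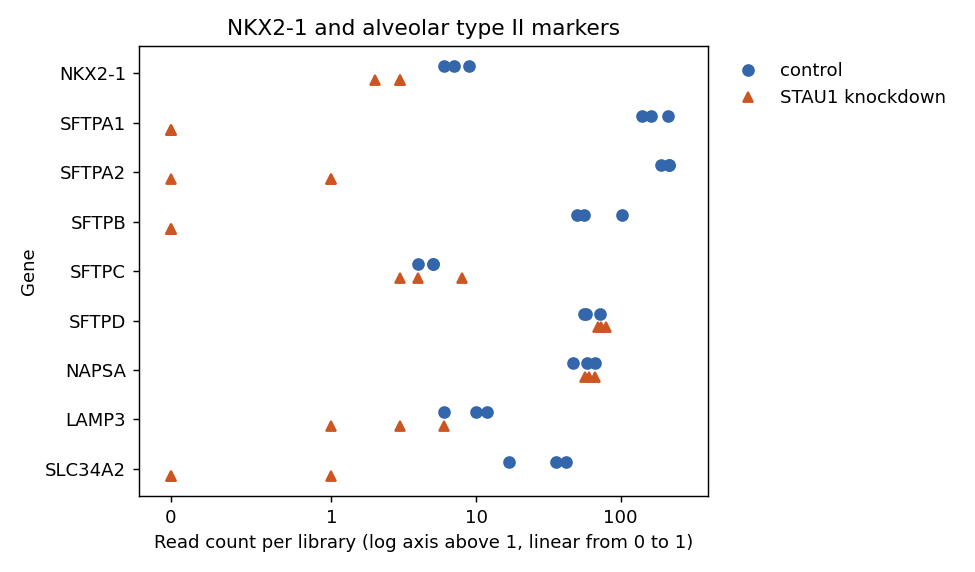
Read counts per library (log axis above 1, linear from 0 to 1) of NKX2-1 and 8 alveolar type II markers in 3 control (circles) and 3 knockdown (triangles) libraries. SFTPA1 and SFTPB stand at 0 in all 3 knockdown libraries, while NAPSA and SFTPC overlap between groups.

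The wider set of 24 lung secretory, alveolar and airway genes split in both directions. Of 14 tested, 4 were higher, 4 lower and 6 not called (median log2 fold change 0.09), or 57.1% called beside 44.2% of all tested genes. The 4 lower are the alveolar markers above that reached 10 counts in controls alone, and PGC, not called, reached it in knockdown libraries alone, so the count and the median carry no weight for the list. LPCAT1, the enzyme that makes surfactant phosphatidylcholine, rose from 96.6, 95.9 and 95.2 CPM to 156.2, 151.5 and 154.7 CPM (0.68, SE 0.03, edgeR adjusted p = 2.7e-26). CAV1, a caveolar protein gene high in alveolar type I cells, rose by 0.37 (SE 0.02). ABCA3, the lamellar body lipid transporter gene, had 0.12 (SE 0.06), not called.

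Of 37 liver and gut genes of the HNF4A and FOXA network 28 were tested, of which 20 were higher, 0 lower and 8 not called. Their median log2 fold change was 0.42 beside -0.0004 over all tested genes. Over all tested genes 22.2% were higher. The list was chosen with earlier results of these data known, so no result about it as a group is read from its count. The groups did not overlap for 21 of the 28, beside 51.4% of all tested genes. TM4SF4, a tetraspan membrane protein gene of liver and gut, had 61.9, 63.3 and 66.4 CPM in controls and 124.3, 124.0 and 122.6 CPM in knockdown libraries (0.95, SE 0.03, edgeR adjusted p = 1.1e-29). The 3 fibrinogen chain genes, neighbours on chromosome 4 whose proteins form 1 clotting factor, rose side by side.

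FGB had 330.3, 350.2 and 321.1 CPM in controls and 532.4, 539.7 and 533.9 CPM in knockdown libraries (0.68, SE 0.02). FGG rose by 0.53 (SE 0.02) and FGA by 0.47 (SE 0.02). The other higher genes ranged from CPS1, the urea cycle's entry enzyme, at 0.19 to F10, coagulation factor X, at 1.48 (SE 0.42) from low counts. F10 and TTR, 2 of the 20 higher genes, reached the minimum of 10 counts in knockdown libraries alone and so had to differ, and the list's count and median are a description only. ALB, the serum albumin gene, had 0.38 (SE 0.23) and was not called. LGALS4 lost its call under 6 alternatives and stood at 0.17 without knockdown replicate 3 (edgeR adjusted p = 0.393), and TTR lost its call under 4. Of the defining hepatocyte markers, with a summed 13.05 to 13.25 CPM in controls and 16.6 to 18.04 in knockdown libraries, F2, the prothrombin gene, made up most at 9.21 CPM in controls, and ALB had 1.04 CPM. Of 5 tested, 3 were higher (AHSG, F2 and TTR) and CYP2E1 was lower, where 22.2% of all tested genes were higher and 22% lower. F2, TTR and ALB also belong to the liver and gut list, so the marker counts are not independent of it. The part of hepatocyte markers in the liver and gut counts was not tested.

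The FGB window is shown because it carries a C/EBP match, a pattern that 10.5% of all RefSeq windows hold. FGB rose with HNF4A and CEBPD while CEBPA fell, and any part of the match in this was not tested. RefSeq has 2 overlapping windows for FGB, and the match lies 101 bases before the first start and 132 before the second. The first, printed here, spans chr4:154562730-154563029 on the plus strand (GRCh38.p14), and capitals mark that match. The FGA window holds a C/EBP match as well, 141 bases before the start, and a forkhead match 160 bases before it. The FGG window holds a GATA match, 232 bases before the start, and no C/EBP match. The TM4SF4 window holds no match to any of the patterns searched. The HNF4 pattern is absent from the FGA, FGB, FGG and TM4SF4 windows alike.
FGB: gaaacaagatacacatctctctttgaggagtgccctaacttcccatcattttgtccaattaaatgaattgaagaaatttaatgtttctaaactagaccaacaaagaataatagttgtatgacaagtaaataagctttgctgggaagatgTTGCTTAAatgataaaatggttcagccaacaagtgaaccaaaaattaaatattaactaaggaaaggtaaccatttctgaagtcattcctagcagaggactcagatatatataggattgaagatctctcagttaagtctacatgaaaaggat

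**Figure D4:**
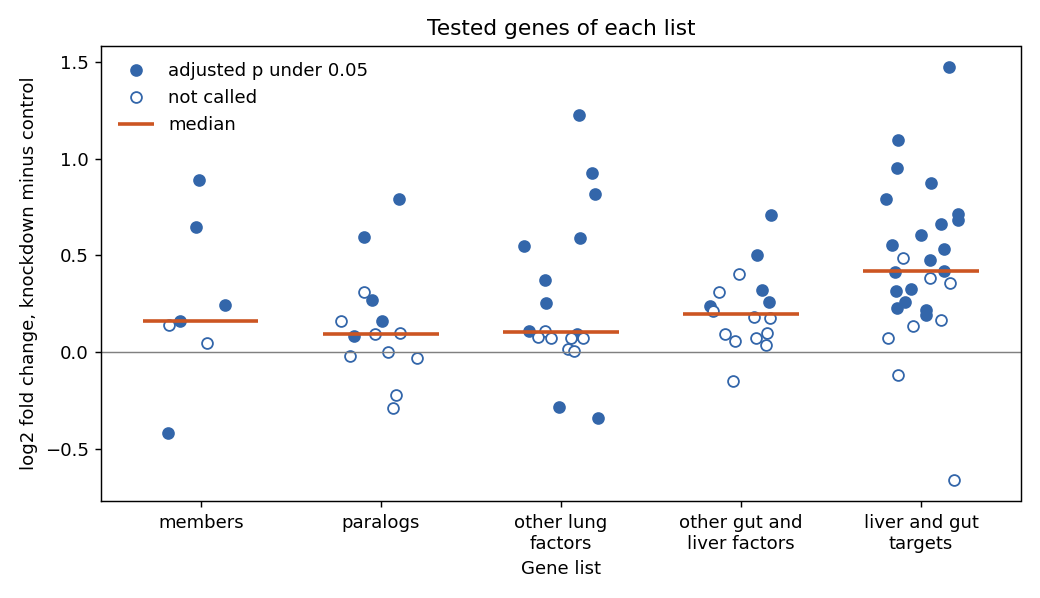
Log2 fold change (knockdown minus control) of the tested genes in 5 lists, with filled points at an adjusted p under 0.05 and bars at the medians. The liver and gut targets have a median of 0.42 and no called gene below 0, while the factor lists have medians of 0.10 to 0.20.

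Other lineage factors moved singly. Among 21 further lung factors 18 were tested, 9 higher, 2 lower and 7 not called (median 0.10). The share called was 61.1%, beside 44.2% of all tested genes (22.2% higher and 22% lower), and no result about the list is read from it. Without control replicate 2, 6 were higher. TBX2 lost its call under 6 alternatives, and KLF5 and NFIB each under 2. TP63, the basal cell factor, rose from 5.09, 6.275 and 5.745 CPM to 12.9, 13.75 and 13.4 CPM (1.23, SE 0.08, edgeR adjusted p = 3.9e-17). FOXP4, a forkhead repressor of airway genes, rose from 18.2 ± 0.459 to 34.7 ± 1.33 CPM (SD, n = 3, 0.93, SE 0.05). ETV5, an ETS factor of alveolar type II cells and of FGF signalling, fell by 0.34 on the log2 scale (SE 0.05), and ID2, a distal tip factor, fell by 0.28 (SE 0.04). SOX9 had 0.08 (SE 0.04), not called, though it was called with total-count scaling, on both FPKM scales and without control replicate 3.

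Among 21 further liver, pancreas and gut factors 16 were tested, 5 higher, 0 lower and 11 not called (median 0.20), or 31.2% called beside 44.2% of all tested genes (22.2% higher). NR1H4, the bile acid receptor FXR, rose from 11.6, 11.4 and 10.55 CPM to 18.6, 17.5 and 18.7 CPM (0.71, SE 0.07, edgeR adjusted p = 6.7e-13). NR2F2, an orphan nuclear receptor, rose by 0.26 (SE 0.03), and PPARA, the fatty acid receptor, by 0.50 (SE 0.09). KLF4 rose by 0.32 (SE 0.10), a call lost without control replicate 1 or knockdown replicate 3 (edgeR adjusted p = 0.0718 and 0.165). With total-count scaling 10 of the 16 were higher, beside 5473 of all 17089 tested genes.

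Transcripts at the same loci were read as a description, since no source used here gives the strand setting of the counting, so reads of overlapping genes may be shared. CEBPA-DT, which starts divergently from the CEBPA promoter, had 61, 62 and 65 counts in controls and 81, 91 and 101 in knockdown libraries (0.45, SE 0.16, edgeR adjusted p = 0.0186), opposite in direction to CEBPA. That call was lost with DESeq2 (adjusted p = 0.077) and without control replicate 1 or knockdown replicate 2 (edgeR adjusted p = 0.0513 and 0.0603). GATA6-AS1 had 7, 7 and 10 counts and then 12, 13 and 29 (1.06, SE 0.40), a call that 6 alternatives ended; without knockdown replicate 3 it had 0.61 (edgeR adjusted p = 0.306). LINC00261, next to FOXA2, had 0.21 (SE 0.13) and ELF3-AS1 0.02 (SE 0.07), neither called. MIPOL1, beside FOXA1, was higher at 0.26 (SE 0.10), a call that each of 9 alternatives ended, and TTC6, its neighbour, had 0.41 (SE 0.19), not called. NKX2-1-AS1 had 1 count in each group.

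The genes most like each factor across the 6 libraries were listed by Pearson correlation of log2 CPM among genes of moderate or higher expression. For HNF4A these were GJA1 (r = 0.9997) and TANC1 (0.9993), for SOX2 STX17 (0.9991) and IFT57 (0.9973), and for CEBPA SAAL1 (0.9987) and MRPL38 (0.9977). For FOXA1 they were GOLPH3L (0.9986) and SLIT3 (0.9971), for ELF3 BPHL (0.9984) and TRIB1 (0.9981), for FOXA2 FBXL6 (0.9982) and MBTD1 (0.9924), and for GATA6 TMCC1 (0.985) and IRF5 (0.9662). The 6 points share 1 difference between groups, which sets most of r. With HNF4A 1351 of 10122 genes had r above 0.95, and with GATA6, whose groups overlap, 7 of 10123.

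**Figure D5:**
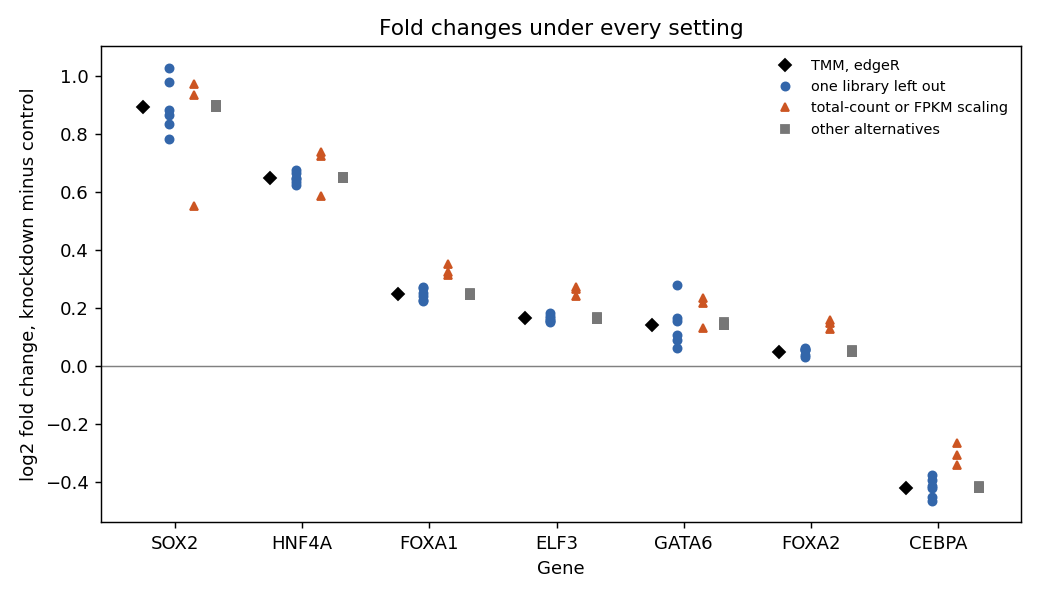
Log2 fold change (knockdown minus control) of the 7 tested factors with TMM scaling in edgeR (diamonds), with each of the 6 libraries left out (circles), with total-count or FPKM scaling (triangles) and under other alternatives (squares). SOX2, HNF4A, FOXA1 and ELF3 stay above 0 and CEBPA below 0 under all 16 alternatives.

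The 5 called factors kept their direction and their call under each of the 16 alternatives. Some sizes moved by over 1.5 times. SOX2 was 0.55 on the log2(FPKM + 1) scale, which compresses low genes, and 0.93 on the log2(FPKM + 0.1) scale. ELF3 was 0.27 on both FPKM scales, and CEBPA was -0.27 on the log2(FPKM + 1) scale.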

How the data were processed

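Poly(A)-selected RNA of 3 control and 3 STAU1 knockdown libraries of A549 cells was sequenced as 150 nt pairs from a directional kit, per the labels' protocols. The authors deposited raw read counts per gene and FPKM per gene. HISAT2, DESeq2 and GRCh38 are named in the submitters' processing notes. For counting tool, annotation release and strand setting: not given in the sources used here.

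Counts were tested with edgeR 4.0.16 in R 4.3.3 (TMM scaling, a filter at a minimum count of 10, robust quasi-likelihood fit, Benjamini-Hochberg adjustment, threshold 0.05), fitted on all 17089 genes that passed. Libraries held 30354219 to 35431441 counts. Replicate libraries differed by more than sampling noise (chi-square over degrees of freedom 1.78 to 2.88). On simulated data the test recovered 70% of genes changed by 0.25 (log2) and 90% of those changed by 1, over 17089 genes. The simulation gave all genes the same dispersion and changed only 50 genes at each size. These rates therefore need not hold for the real data or for genes of low count. Alternatives were 3 scalings, 2 filters, DESeq2 1.42.0, limma-voom and FPKM scales (limma 3.58.1, pseudocounts 1 and 0.1), a replicate block, and leaving out each library. Ratios used exact permutation tests over libraries. Intervals and floors of 3 counts cover counting error only.

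The factors and all gene lists were chosen with earlier results of these data known. Genes were named by rule: all 8 factors, STAU1, the 4 genes of each list with the smallest adjusted p, locus transcripts with at least 30 counts in all, the 2 genes most correlated with each tested factor among those at a mean log2 CPM of 3 or more, and markers that moved with a result. Other genes named were chosen after their values were seen. Gene positions come from GENCODE 29 by symbol and identifier, and promoter windows from RefSeq (GRCh38.p14). The promoter of FOXA2 is not analysed here. Some genes of the lists are not reported here by name.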

Additional observations from a re-analysis of the deposited data

How the results depend on the processing

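The calls and directions of HNF4A, SOX2, FOXA1, ELF3 and CEBPA held under all 16 alternatives, and GATA6 was called under none (0.06 to 0.28). FOXA2 was called with total-count scaling (0.126, adjusted p = 0.0137 in edgeR), log2(FPKM + 1) (0.146) and log2(FPKM + 0.1) (0.158). The same settings called 10, 9 and 9 of 16 further liver, pancreas and gut factors, beside 5 with TMM, all of them higher. Over all tested genes these settings called 5473, 5276 and 5262 higher, beside 3801 with TMM. They moved the median log2 fold change of all genes to 0.0764, 0.0516 and 0.0961 and the share of calls that were higher from 50.3% to 69.5%, 77.3% and 77.2%. Genes called ranged from 6023 with DESeq2 to 7880 with total-count scaling. Without 1 library at a time, HNF4A ranged from 0.62 to 0.67, SOX2 from 0.78 to 1.03, FOXA1 from 0.22 to 0.27, ELF3 from 0.15 to 0.18 and CEBPA from -0.46 to -0.38. Liver and gut targets called ranged from 18 to 21, with 28 tested in each fit that left out 1 library. The 21, without knockdown replicate 1, were 20 higher and 1 lower, CYP3A5 at -0.20 (edgeR adjusted p = 0.0316). Same-numbered libraries deviated together only weakly (r = 0.0447, 0.0237 and 0.108 over 10123 genes), though the last was the largest of any control and knockdown pair. Control replicate 2 correlated better with knockdown replicate 1 (0.0583) than with its own number. These weak values do not settle whether the numbers are pairs, and the main fit did not take them as such. A replicate block gave 3821 genes higher and 3844 lower, beside 3801 and 3759, and changed no factor's call. Depth limits NKX2-1, with 30 counts in all 6 libraries.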
